A study of Mus musculus with 6 samples.

Results

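Histones are the proteins that package DNA, and 20 rows of the expression table of Alkbh1-/- and WT mouse embryonic stem cells (mESCs) carried the symbol of a histone gene. The rows were chosen by symbol, as those that began with Hist1h to Hist4h, H1f, H2af or H3f. They made up 20 of the 33142 probe sets of the table and bore 9 symbols: H1f0, H1f2, H1f3, H1fo-pending, H2afx, H2afz, H3f2, H3f3a and H3f3b. A probe set is a group of short oligonucleotides on the array whose common brightness stands for 1 transcript. For each symbol the probe set with the highest mean was taken, and the others are given beside it.

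Gene expression was measured with 3 arrays of WT and 3 arrays of Alkbh1-/- mESCs, all of C57BL/6 background, at passage 8 and day 0, before any differentiation. ALKBH1 is an AlkB-family dioxygenase, and the study asked what its loss changed in undifferentiated mESCs and whether histone H2A was its substrate. Both lines were derived from littermate embryos of heterozygous parents and grown with leukemia inhibitory factor on irradiated fibroblasts, so each genotype was compared as the arrays of a line, and line and genotype cannot be told apart. The labels do not say whether arrays of a genotype came from separate cultures. The tables give, for each probe set, the authors' mean log2 value over all arrays and, for some, the authors' geometric mean intensity in each genotype, and values of individual arrays were not used. Hence no value below has an error or a test, a difference is described by its size alone, and the number of arrays limits its precision.

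The core histones H2A, H2B, H3 and H4 form the nucleosome, and the linker histone H1 binds where DNA enters and leaves it. Canonical histone genes lie in clusters, are transcribed mainly in S phase, and make mRNAs that end in a stem-loop in place of a poly(A) tail. Variant genes such as H2az1, H3f3a and H3f3b lie alone, are expressed throughout the cell cycle and mostly make polyadenylated mRNAs. The labelling kit used here primes from poly(A) tails. Its part in the levels of the cluster genes was not tested.

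The promoters of 3 of the genes are shown because they set a cluster H1 gene with means for both genotypes (H1f2) beside another cluster H1 gene (H1f6, the gene behind the symbol H1f3) and a replacement-type H2A variant (H2az1, formerly H2afz). Each is the stretch of 250 bases before the start site, on the plus strand, from RefSeq with assembly GRCm38.p6: chr13:23738557-23738806 for H1f2, chr13:23695561-23695810 for H1f6 and chr3:137864237-137864486 for H2az1. Capitals mark CCAAT, read on either strand (ATTGG on the other), and, in the H1 genes, AAACACA, the element known as the H1 box.
H1f2: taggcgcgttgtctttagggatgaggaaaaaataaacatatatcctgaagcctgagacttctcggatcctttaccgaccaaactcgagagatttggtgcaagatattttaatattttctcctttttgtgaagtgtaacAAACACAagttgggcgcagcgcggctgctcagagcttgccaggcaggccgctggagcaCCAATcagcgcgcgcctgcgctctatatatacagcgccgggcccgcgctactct
H1f6: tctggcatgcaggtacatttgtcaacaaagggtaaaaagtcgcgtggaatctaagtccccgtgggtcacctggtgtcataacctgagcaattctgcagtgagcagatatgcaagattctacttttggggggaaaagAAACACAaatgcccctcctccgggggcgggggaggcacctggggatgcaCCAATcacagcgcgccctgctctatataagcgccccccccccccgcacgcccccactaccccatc
H2az1: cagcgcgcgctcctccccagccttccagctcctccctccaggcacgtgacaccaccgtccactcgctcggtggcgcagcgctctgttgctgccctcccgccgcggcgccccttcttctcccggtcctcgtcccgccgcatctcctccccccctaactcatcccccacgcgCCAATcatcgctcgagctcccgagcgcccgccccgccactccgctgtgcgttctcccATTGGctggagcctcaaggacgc
In H1f2, CCAAT began 54 bases and AAACACA 112 bases before the start site. In H1f6 they began 65 and 114 bases before it, in the same order. H2az1 held CCAAT at 80 bases and, on the opposite strand, at 23 bases, and no AAACACA in this window.

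The same letters were counted on both strands in the 250 bases before the start of every gene in the reference, together with the core of the TATA box (TATAAA) and the octamer bound by OCT proteins (ATTTGCAT). No motif searched contains another of them. The CCAAT box was found in 33.8% of 32851 promoters, the H1 box in 6.25%, the TATA core in 12.4% and the octamer in 1.60%. Of 6 H1 genes of the clusters, 6 held the CCAAT box, 5 the H1 box and 4 the TATA core. The CCAAT box was present in all 18 cluster H2A promoters and all 17 cluster H2B promoters, and the octamer in 7 of each. Many cluster H2A and H2B genes face each other as divergent pairs, so that their promoters can hold the same bases. In cluster H3 promoters the CCAAT box was found in 8 of 10, and in cluster H4 promoters in 3 of 12, with the TATA core in 6 of 12. Among variant genes the CCAAT box was found in 10 of 17 and the TATA core in 1 of 17. These are counts of letters and not of bound sites. Of the 7 genes to which an identifier tied the rows, 6 had a promoter in the reference.

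No row was under a symbol from Hist1h to Hist4h. Several cluster genes stood under short symbols outside the rule: H3c1 and H3c4 under Hist4, H3c7 under Hist1, H2aw under Hist2 and H2bc22 under His2b. These symbols did not all match the older names of the genes, as with H2aw, or Hist3h2a, under Hist2. A further 13170 rows had no symbol. The gene identifiers deposited beside the symbols tied 10 of the 20 rows to a histone gene, gave none for 7 and tied 3 to another gene. Of the latter, 2 stood under H1f2, and their values are not given here. The row 1427219_at under H3f3a carried that of Hba-a1, an alpha-globin gene. The row under H1f3 was that of H1f6, the testis H1, and the row under H1fo-pending that of H1f8, the oocyte H1. Of the 20 probe sets, 9 had the suffix _a_at, given to sets that match several transcripts of a gene, and 8 the plain suffix _at. The suffix _x_at, for sets in which some probes also match other sequences, was carried by 2, and _s_at, for sets shared by several genes, by 1, that of H3f2.

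The 9 symbols of the rule, none of them from Hist1h to Hist4h, lay mostly in the bright part of the array. The mean log2 value over all arrays ran from 3.22 to 14.67 over all probe sets, with a median of 6.31, and 7 of the 9 symbols and 14 of the 18 rows with values given here lay above that median. The median over the 9 symbols was 9.01, the value of the shared probe set of H3f2, with 81.6% of all probe sets below it. Over a wider list of 27 histone genes, given below, the median was 7.16, and 16 genes lay above that of the array. Here and below, the brightest probe set of a gene is set against all single probe sets, which favours a place above the median. A mean depends on the probes as well as on the transcript, so a level is given as its place in the range of the array, and the amounts of different genes are not compared.

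**Figure D1:**
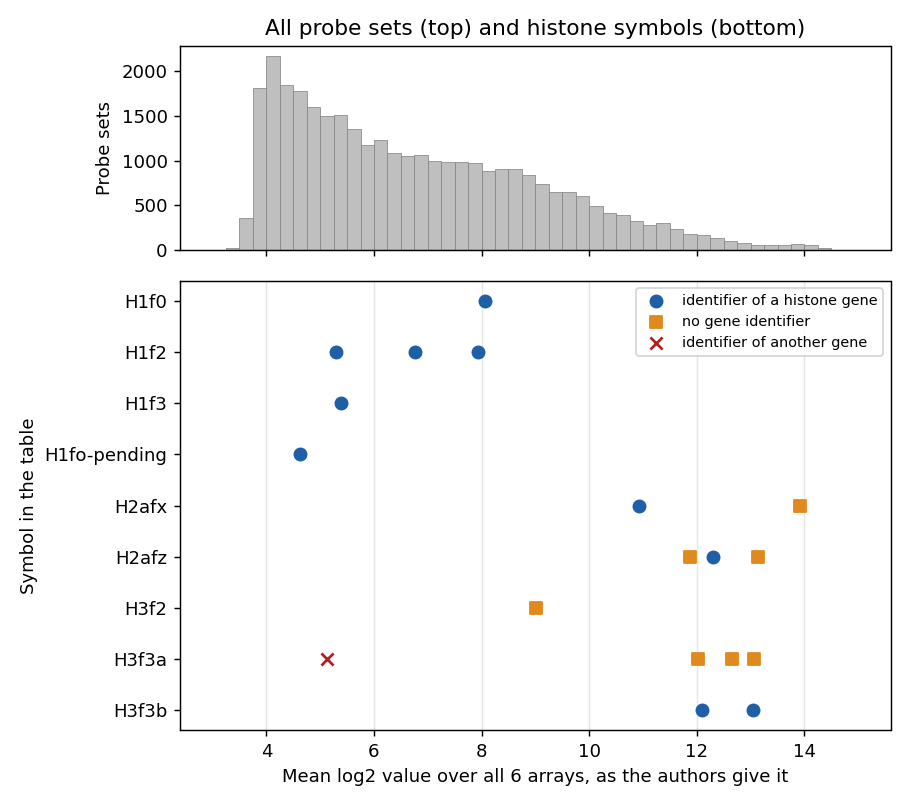
Mean log2 value over all arrays of both genotypes (x axis). Top, number of probe sets in each bin of the whole table; bottom, 18 rows under a histone symbol, each point a probe set, by whether its gene identifier was that of a histone gene, of another gene or absent. Rows under H2afx and H2afz lay between 10.93 and 13.91, and rows under an H1 symbol between 4.63 and 8.06.

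H2A was represented under 2 symbols, both of variants, with 5 rows that ran from 10.93 to 13.91. H2afz encodes H2A.Z, a variant found at promoters and enhancers. Its probe sets had mean log2 values of 13.13 for 1438091_a_at, 12.30 for 1438092_x_at and 11.87 for 1456032_x_at. All lay within 1.26 on the log2 scale and above 97.3% of the array. Only 1438092_x_at carried the identifier of H2az1, and both _x_at sets can also bind other sequences. H2afx encodes H2A.X, which is phosphorylated around DNA breaks. Its row with an identifier, 1416746_at, had a mean log2 value of 10.93, above 94.3% of the probe sets. The row 1438009_at, under the same symbol but without an identifier, had 13.91, above 99.7%. The rows under H2afx thus differed by 2.98, and which of them measured H2ax was not tested. H2ax lies at chr9:44334715-44336077 and H2az1 at chr3:137864487-137866922 (GRCm38.p6). None of the 5 rows had genotype means.

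The H1 symbols covered a lower range, 4.63 to 8.06 over 6 rows. H1f0, the replacement H1 that accumulates in cells that stop dividing, had a mean log2 value of 8.06, above 71.7% of the probe sets. H1f2, a somatic cluster H1 also called Hist1h1c (chr13:23738807-23739531), had 7.94, above 70.2%. Its other probe sets with its identifier had 6.76 and 5.29, a range of 2.65. H1f6 had 5.39, above 36.0% of the probe sets, and H1f8 had 4.63, above 21.4%. Among the genes under these symbols, H1f6 and H1f8 were below the median of the array. H1f0 and H1f2 were above it at their brightest probe sets. This is not a split of germline from somatic genes. The cluster gene H1f4, not under a symbol of the rule, had 4.17, also below the median.

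H3 was represented by both genes of the replacement variant H3.3 and by H3f2. H3f3a, at chr1:180802560-180813605, had mean log2 values of 13.06, 12.65 and 12.03 at its 3 probe sets. The row with the identifier of Hba-a1 under its symbol had 5.13. H3f3b, at chr11:116021961-116026039, had 13.05 and 12.09. Both genes encode the same protein, and their brightest probe sets lay above 99.1% of the array. H3f2 is an older name of H3c14, a canonical H3 gene of the cluster on chromosome 3. Its probe set 1460314_s_at, shared by several genes, had 9.01, above 81.6%, and does not single out a gene. No row under a symbol of the rule was of H2B or H4.

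A wider list was drawn up through RefSeq, after these values were seen, of genes whose current or older symbol fitted the rule, whatever symbol the table gave them. It held 27 genes on 39 probe sets, of which 8 genes already stood under a symbol of the rule. At the brightest probe set, the 14 variant genes had a median of 9.67 and ran from 4.40 to 13.92, and 11 of them lay above the median of the array. The 13 cluster genes had a median of 5.39 and ran from 3.84 to 8.98, with 5 above the median. Cluster genes were those with a current or older symbol from Hist1h to Hist4h. They included H1f6, the testis H1, whose value was the median of the class. The ranges overlapped.

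**Figure D2:**
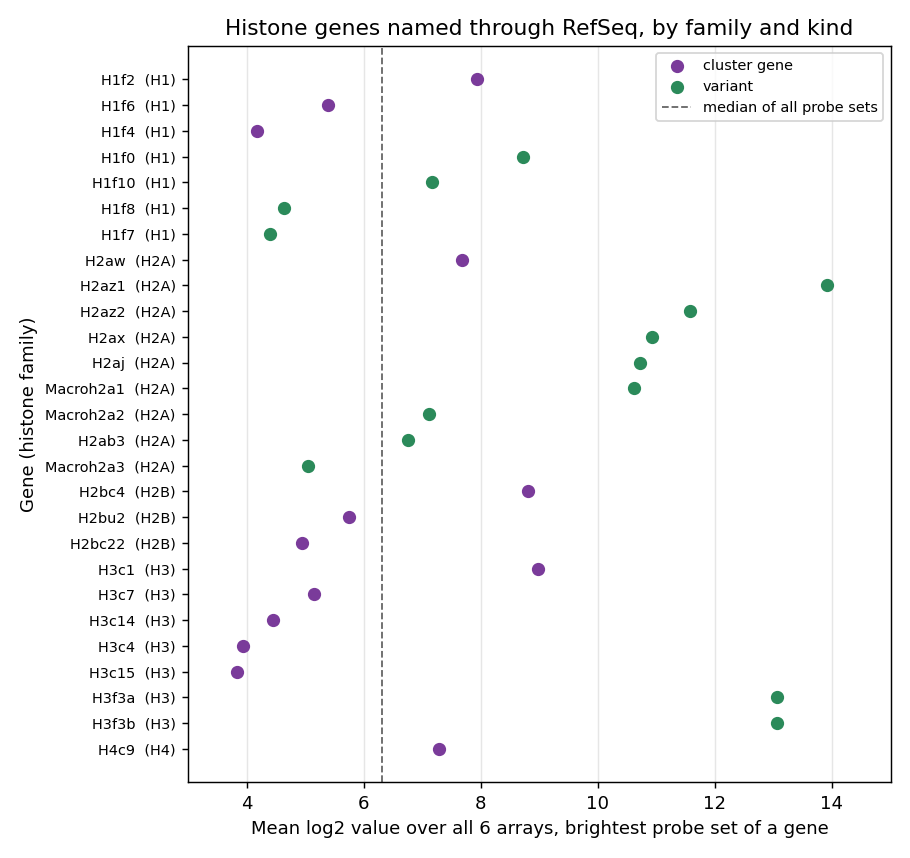
Mean log2 value over all arrays (x axis) of the brightest probe set of each of 27 histone genes, grouped by family and coloured by kind; the dashed line is the median of all probe sets. Among the variants, 11 of 14 lay to the right of the line, and among the cluster genes 5 of 13.

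In this list H2A had 9 genes, 8 of them variants with a median of 10.67. H2az1 had the highest value, 13.92, at 1416415_a_at, a probe set without a symbol in the table. H2az2, which encodes a second form of H2A.Z, had 11.58 and, at its other probe set, 6.46, and H2ax had 10.93. H2aj, a variant close to canonical H2A, had 10.72 at the brightest of its 3 probe sets and 4.21 at the dimmest, which lay below the median of the array. The macroH2A proteins carry a large additional domain and are found on repressed chromatin, the inactive X chromosome included. Macroh2a1 had 10.62, Macroh2a2 7.11 and Macroh2a3 5.04. The row 1456433_at, under the same symbol as the probe sets of Macroh2a2 and Macroh2a3 but without an identifier, had 9.17. It had no genotype means, and which gene it measured was not tested. H2ab3, a short testis variant, had 6.75 at a probe set that can bind other sequences. The cluster H2A gene H2aw, or Hist3h2a, had 7.67 and, at a shared _s_at probe set below the median, 5.29. It was the only canonical H2A gene on the list.

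The other families held 18 genes. Among H1 genes, the variant H1f0 had 8.72 at a probe set without a symbol, H1f10 had 7.16 and the spermatid gene H1f7 had 4.40. The brightest cluster H1 gene was H1f2 and the dimmest H1f4, with 4.17. H2B had cluster genes only, from H2bc4 with 8.80 to H2bc22 with 4.95. Among cluster H3 genes, H3c1 had 8.98 at a shared _s_at probe set and H3c15 had 3.84. H3f3b had a further probe set, under another symbol, with 5.93. The H4 family had H4c9 alone, with 7.28. Paralogs of a cluster are nearly identical in their coding sequence, so a probe set named for a cluster gene can be bright through its paralogs.

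Intensities of each genotype came from a separate table of a class comparison, in which they stood beside their own identifiers for 8 of the 4232 entries that could be joined to a probe set. Entries were joined by value, to the probe set with the same overall mean. At the targeted gene this gave 761 in WT and 25.7 in Alkbh1-/- mESCs for 1434660_at (log2 difference -4.89) and 120 and 34.6 for 1438681_at (-1.79). Both probe sets of Alkbh1 were lower in the Alkbh1-/- arrays, as the labels state. By the printed identifier, H1f2 would read 176 in WT and 112 in Alkbh1-/- mESCs, a log2 difference of -0.65, and 1438681_at would be higher in Alkbh1-/- mESCs by 0.60.

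Among the 18 rows whose values are given, 1 had genotype means, a probe set of H1f2. At 1416101_a_at the geometric mean intensity was 335 in WT and 179 in Alkbh1-/- mESCs. The level in Alkbh1-/- mESCs was thus 1.87-fold lower, a log2 difference of -0.91. H1f2 was the single symbol of the 9 whose brightest probe set had genotype means and a difference past 1.5-fold. The other probe sets of H1f2, at 6.76 and 5.29, had no genotype means here, so the difference rests on a single probe set.

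The share of probe sets past 1.5-fold was large in this table. It lists only entries that had a nominal p under 0.05 in the authors' comparison, out of 7320 that passed a filter, and 4232 entries were joined to a probe set. Among these, 30.3% were lower past 1.5-fold in Alkbh1-/- mESCs, 32.8% were higher and 63.2% were either. A log2 difference as negative as that of H1f2 was found for 464 of the 4232, and 24.9% differed by at least its size in either direction. That a probe set is or is not listed is not read as a result.

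**Figure D3:**
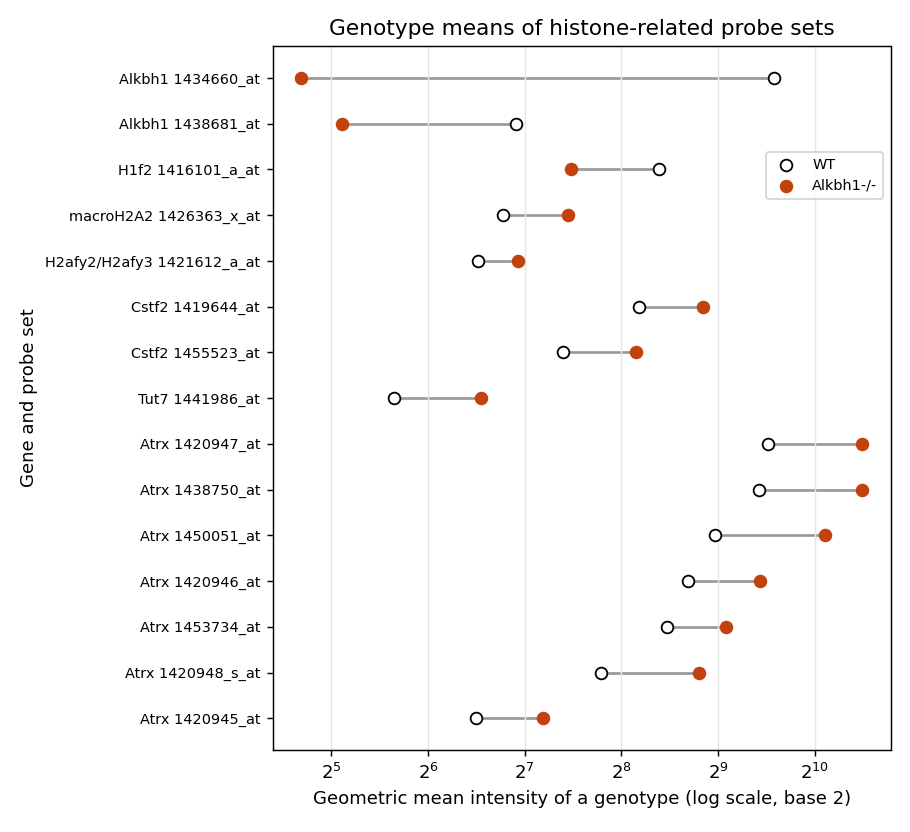
Geometric mean intensity (x axis, log scale of base 2) of WT (open) and Alkbh1-/- (filled) mESCs at probe sets of Alkbh1, H1f2, macroH2A genes, and genes that process histone mRNA or carry histones; no errors were given. H1f2 lay at 335 in WT and 179 in Alkbh1-/- mESCs, and all probe sets below it in the plot were higher in Alkbh1-/- mESCs. Of all probe sets with genotype means, 51.5% were higher. Atrx, with 7 probe sets in the plot, and Cstf2 lie on the X chromosome. Among X-linked probe sets with genotype means, 78.0% were higher past 1.5-fold.

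In the wider list, Macroh2a2 was the other gene with genotype means. Its probe set 1426363_x_at had 110 in WT and 174 in Alkbh1-/- mESCs, which is 1.59-fold higher (log2 difference 0.67). A probe set annotated to both H2afy2 and H2afy3, the older names of Macroh2a2 and Macroh2a3, had 91.5 and 122 (0.42). The former can bind other sequences, and the latter is shared by 2 genes. Apart from this shared probe set, the other 7 H2A variants and H2aw, the canonical H2A gene, had no joined entry with genotype means. These means thus gave no H2A transcript difference that is specific to a gene and unshared, and the missing entries are not read as a result.

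Genes that make and process canonical histone mRNA were looked at next. Of 18 symbols listed, 16 named a gene with a probe set, and all 16 lay above the median of the array at their brightest probe set. Taking the brightest of several probe sets favours a place above that median. The share of all named genes above it is not given here. Slbp, which binds the stem-loop, was the brightest with a mean log2 value of 11.55, and Upf1, which acts in the decay of these mRNAs, the dimmest with 7.71. No brightest probe set had genotype means. At other probe sets 2 genes had them. Cstf2, which encodes a cleavage factor subunit, went from 290 in WT to 461 in Alkbh1-/- mESCs at 1419644_at and from 169 to 284 at 1455523_at. Tut7, which adds uridines to histone mRNA ends, went from 50.1 to 93.4 (log2 difference 0.90). All 3 probe sets were higher in Alkbh1-/- mESCs past 1.5-fold, where 32.8% of all probe sets with genotype means were. Of the 3, 2 were of the same gene, Cstf2. That of Tut7 had a mean log2 value of 6.10, below the median of the array.

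A list of histone chaperones, which carry histones to and from DNA, also held Cenpa, the centromeric H3 itself, and 21 of its 24 genes were found, from Npm1 with 13.99 to Hjurp, the chaperone of CENPA, with 7.19. Atrx, which with Daxx deposits H3.3 at repeats, was the only one with genotype means. They were given for 7 of its probe sets, and all 7 were higher in Alkbh1-/- mESCs past 1.5-fold. The log2 differences ran from 0.61 at 1453734_at (354 in WT and 542 in Alkbh1-/- mESCs) to 1.14 at 1450051_at (501 and 1104). The brightest probe set of Atrx, with 11.90, had none. Probe sets of 1 gene are not replicates. Atrx and Cstf2 lie on the X chromosome, and among 491 X-linked probe sets with genotype means 78.0% were higher and 4.07% lower past 1.5-fold. The part of the X chromosome in the values of Atrx and Cstf2 was not tested.

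A brightest probe set above the median of the array did not single out a cell type, since 8 of 10 fibroblast markers had one. All 10 ESC markers had one too. Of these, 6 had genotype means, with log2 differences of 1.10 for Nanog, 0.67 and 0.71 for Klf4, 0.50 to 0.59 for Esrrb, 0.46 to 0.58 for Fgf4, 0.41 for Zfp42, and -0.49 and -0.39 for Utf1. Markers of fibroblasts, on which the cells were grown, had lower means in Alkbh1-/- mESCs, as H1f2 did. All 10 were found, and 5 had genotype means, at 7 probe sets of Col1a1, Col1a2, Col3a1, Col6a1 and Thy1. All 7 were lower in Alkbh1-/- mESCs, 6 of them past 1.5-fold, where 48.5% of all probe sets with genotype means were lower and 30.3% lower past 1.5-fold. Their log2 differences ran from -1.06 to -0.52, and their summed intensity was 4293 in WT and 2246 in Alkbh1-/- mESCs. The part of feeder RNA in the difference of H1f2 was not tested. Fewer cells of a type and less RNA per cell cannot be told apart in these bulk samples. Among 10 proliferation genes, chosen because canonical histone genes are expressed in S phase, Ccne1, the cyclin of S phase entry, alone had genotype means, 2068 in WT and 1485 in Alkbh1-/- mESCs (log2 difference -0.48).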

How the data were processed

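RNA of WT and Alkbh1-/- mESCs was hybridised to Affymetrix mouse arrays, and the authors normalized the intensities with the robust microarray analysis algorithm. The authors deposited mean log2 values over all arrays for 33142 probe sets and a class comparison of 4326 entries with the geometric mean intensity of each genotype. The accompanying note states that the WT class bears a wrong name there. The fold changes, test statistics, p-values and false discovery rates of the authors' own comparison, held in the same tables, were not used. No per-array column was present, so the planned limma fit was not made.

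Log2 differences were computed as Alkbh1-/- minus WT from the deposited intensity means, and called by size past a linear fold of 1.5. Entries were joined to the only probe set with the same mean log2 value within 1e-06, a tolerance chosen after the values were seen. This gave 4232 joined entries, 29 with several candidates and 65 with none. On entries simulated from the mean log2 values of the probe sets themselves, the join was right for 4217 of 4217 joined entries. This tests how often values coincide within the tolerance. It does not test whether the deposited entries belong to the probe sets they matched. Genes were named through RefSeq (GRCm38.p6) by identifier, accession or symbol, for 27493 probe sets. Values of 2 rows that stood under a histone symbol but carried the identifier of another gene are not reported here. Promoter motifs were searched on both strands, and AAACACA was added after the data were seen.

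The members and lists were chosen with earlier results of these data known. Named in the text are every H2A gene; the variants and the brightest and dimmest cluster gene of other families; genes with genotype means; histone genes whose probe sets differ by over 2 on the log2 scale; and the brightest and dimmest of the processing and chaperone lists. H3f2, H1f6, H3c4 and H3c7, Daxx and Cenpa were named outside this rule. Alternatives were the probe set that stands for a gene, the join, the fold and the naming. Python 3.11.15 with pandas 2.3.3, NumPy 2.4.6 and matplotlib 3.10.9 was used.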

Additional observations from a re-analysis of the deposited data

How the results depend on the processing

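The median mean log2 value of the histone symbols, 9.01, was 8.06 with the dimmest probe set of each symbol, 10.56 without probe sets shared between genes and 7.16 over the 27 genes named by identifier. With 1 probe set per named gene as the background, 73.6% in place of 81.6% lay below it. The count of histone genes past 1.5-fold, 1 in the report, was 0 at a log2 difference of 1.5 and 2 by identifier. It was 0 with a join tolerance of 0.0001, under which the entry had several candidate probe sets. When any probe set of a gene counted, the processing genes past 1.5-fold were 2 in place of 0 and the chaperones 1 in place of 0. The log2 difference of H1f2 was -0.91 by value and would read -0.65 by printed identifier. Joined intensities stood beside their own identifiers for 8 of 4232 entries, so the -0.65 is not evidence on H1f2. Leaving out an array was not run, since the tables used hold means only. No paired analysis was possible because the columns carry no replicate numbers. Signal over background was not analysed here.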
